A study of Mus musculus domesticus with 18 samples.

Results

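The cytosolic ribosomal protein genes were described in the livers of wild male house mice (Mus musculus domesticus) that live at high or at low altitude. A gene was a member if a probe set assigned to it alone carried a symbol made of Rpl or Rps, a number and an optional letter or l suffix, or the symbol Rplp0, Rplp1, Rplp2 or Rpsa. Pseudogenes and the Rps6k kinases were left out, and Rps3a1, the mouse name of Rps3a, was taken in beside 46 genes that fit the pattern itself. This gave 47 of the 18194 named genes, 24 of the large (60S) and 23 of the small (40S) subunit. Where a gene had several such probe sets, the one with the highest mean over the 18 arrays was used. A further 29 ribosomal protein genes, Rplp1 and Rpl5 among them, had only probe sets that the annotation shares with pseudogenes or other genes, and are described as shared probe sets.

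The high altitude mice came from La Paz, Bolivia, at 3600 m, and the low altitude mice from Lima, Peru, at 100 m. Each altitude was represented by 3 trapping locations, called A, B and C within it, with 3 mice per location and 1 Affymetrix array per mouse, so that 9 livers stood against 9. All mice were male and untreated as far as the labels say, no age was given, and the labels' strain entry, C57BL/6J, names a laboratory strain although the mice are described as wild. Altitude, city and mouse population coincided and cannot be told apart.

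A ribosome is built from ribosomal RNA and many different proteins, most of them present once per particle, so cells make these proteins in near equal amounts. Their mRNAs are among the most abundant of any cell and begin with a tract of pyrimidines, the terminal oligopyrimidine (TOP) motif, through which mTOR signalling controls their translation. In hepatocytes, which secrete most plasma proteins, ribosome content follows feeding and growth. Because much of that control acts on translation, mRNA levels show only a part of it.

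Values are log2 levels after robust multi-array averaging (RMA), so a difference of 1 is a doubling. A level can be compared between mice for one probe set, not between probe sets. Array medians lay between 5.24 and 5.36, no pair of arrays correlated above 0.994 over all genes, and the 13 measured hepatocyte markers had a median level of 13.68. The number of arrays limited the precision: the median standard error of an altitude difference was 0.078 for the members and 0.087 for all genes.

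Some mice stood apart across the whole family. In high A2 and in high C3, 44 of the 47 genes lay below their own mean over all mice, by a median of -0.19 and -0.22. Low A2 followed, with 40 genes below and a median of -0.13. At the other end, 39 genes lay above their mean in low A1, by a median of 0.17, and 37 in low B3, by 0.15. High C3 was the lowest of the 18 mice for 17 genes, high A2 for 11 and low A2 for 8, while low A1 was the highest for 14. Over all genes the median deviation of these 5 mice was between -0.027 and 0.0052. Over all genes, the mean correlation of high A2 and high C3 with the other arrays ranked 13 and 11 from the lowest of 18. Their Actb 3 prime minus 5 prime signal, a sign of RNA integrity, was 1.36 and 1.31, inside the range of 0.84 to 2.02 of the high altitude mice.

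**Figure D1:**
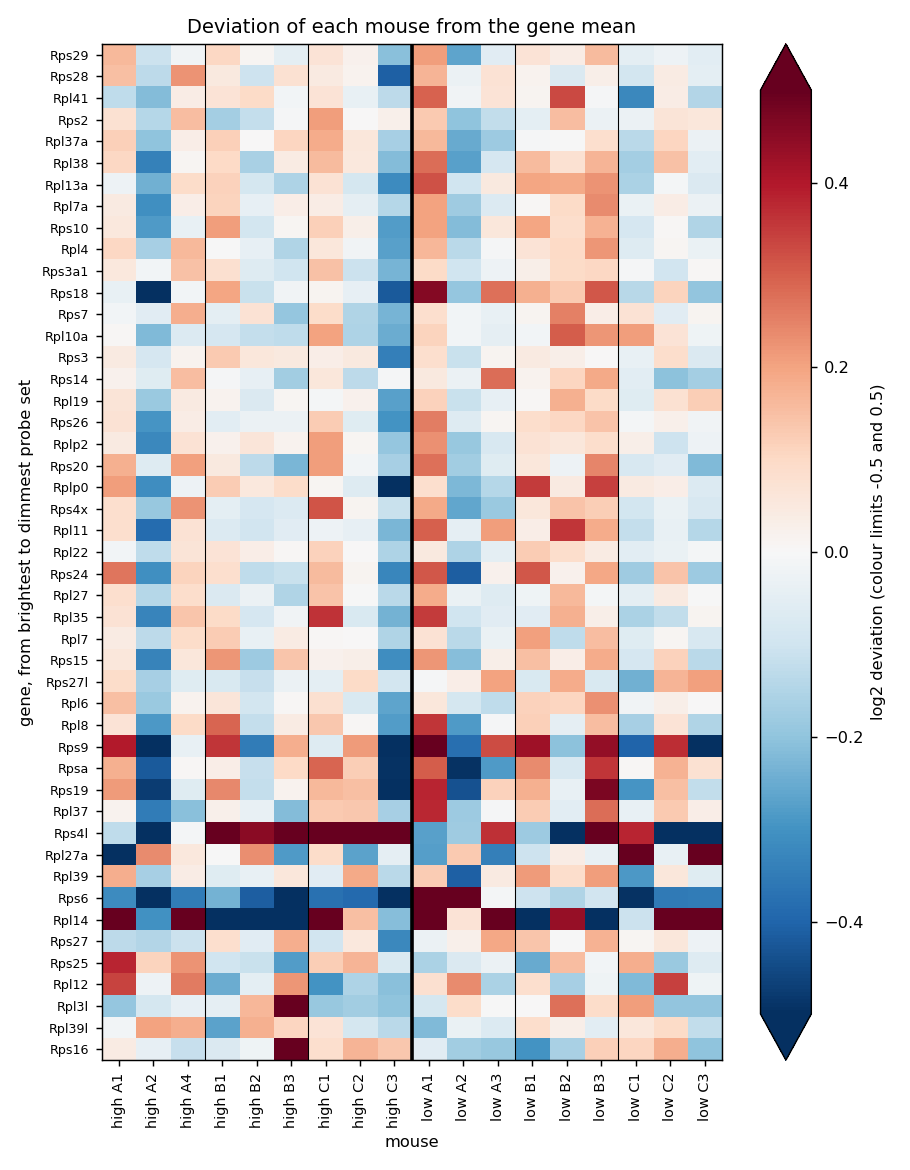
Deviation of every mouse from each gene's mean over the 18 mice, on the log2 scale, for the 47 ribosomal protein genes ordered from brightest to dimmest probe set. Blue columns at high A2, high C3 and low A2 and red columns at low A1 and low B3 run through the bright genes. The dim genes at the bottom follow these columns less evenly. In their mean level, too, high A2 was the lowest and low A1 the highest of the 18 mice.

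The mean level of the 47 genes in a mouse summed up this spread. At high altitude it ranged from 10.63 in high A2 to 10.98 in high C1, with a mean of 10.83 ± 0.13 (SD, n = 9). At low altitude it ranged from 10.79 in low A2 to 11.11 in low A1, with a mean of 10.90 ± 0.10 (SD, n = 9). The groups overlapped over most of their range, and the difference of -0.065 was smaller than either SD. By location the means were 10.84, 10.83 and 10.83 in high A, B and C and 10.93, 10.93 and 10.84 in low A, B and C. The mice of a location differed by up to 0.32 in high A, 0.34 in high C and 0.32 in low A, and by 0.083 to 0.092 in the other 3. Of the sum of squares of this mean level, 8.13% lay between altitudes, 7.5% between locations of an altitude and 84.4% between mice of a location. Such shares depend on the number of groups and mice, and most falls between mice of a location even without any effect. For single genes the medians over all 18194 were 4.17%, 22.6% and 68.7%. Without high A2 and high C3 the difference between altitudes was -0.0073; both were chosen as the lowest mice and both are of high altitude, so leaving them out could only raise the high mean.

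**Figure D2:**
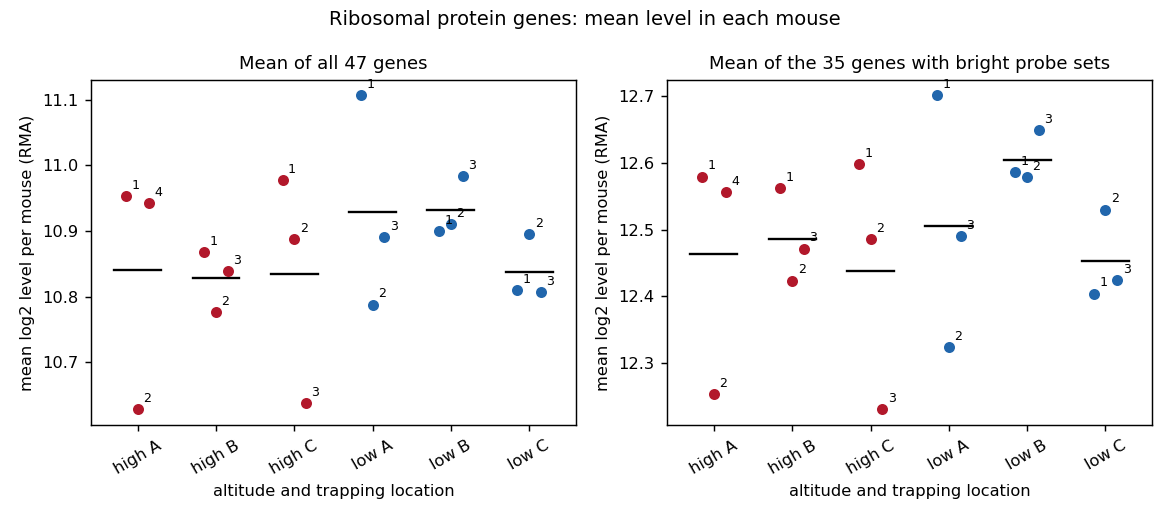
Mean log2 level of the ribosomal protein genes in each mouse (points, labelled with the mouse number) by altitude and trapping location, with the location mean as a bar; red is high and blue low altitude. For all 47 genes high A2 at 10.63 and high C3 at 10.64 lie below the 16 other mice and low A1 at 11.11 above them; the 35 genes with bright probe sets give the same picture.

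The comparison of altitudes asked which of these genes differ between livers of high and low altitude mice. Of the 47 genes 38 had a lower mean at high altitude and 9 a higher one, where 48.4% of all genes were lower and 51.6% higher. The median log2 difference was -0.057, against 0.0044 over all genes. By limma's moderated test with trapping location as a random block, 0 of 47 members passed an adjusted p of 0.05, where 0.363% of all genes did, 0.225% as higher and 0.137% as lower. At an unadjusted p under 0.05 there were 2, Rpl10a and Rps6, both lower, against 11.5% of all genes, 6.38% higher and 5.1% lower. Leaving out 1 mouse at a time gave medians from -0.083, without low A2, to -0.03, without high A2 or high C3; without low A1 it was -0.033 and without low B3 -0.037. Without the 3 mice of low B it was -0.0055, with 25 of 47 differences negative. Without both high A2 and high C3 it was 0.011, with 21 negative, a shift whose direction the choice of the lowest mice fixes. Normalizing the arrays again gave -0.038.

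**Figure D3:**
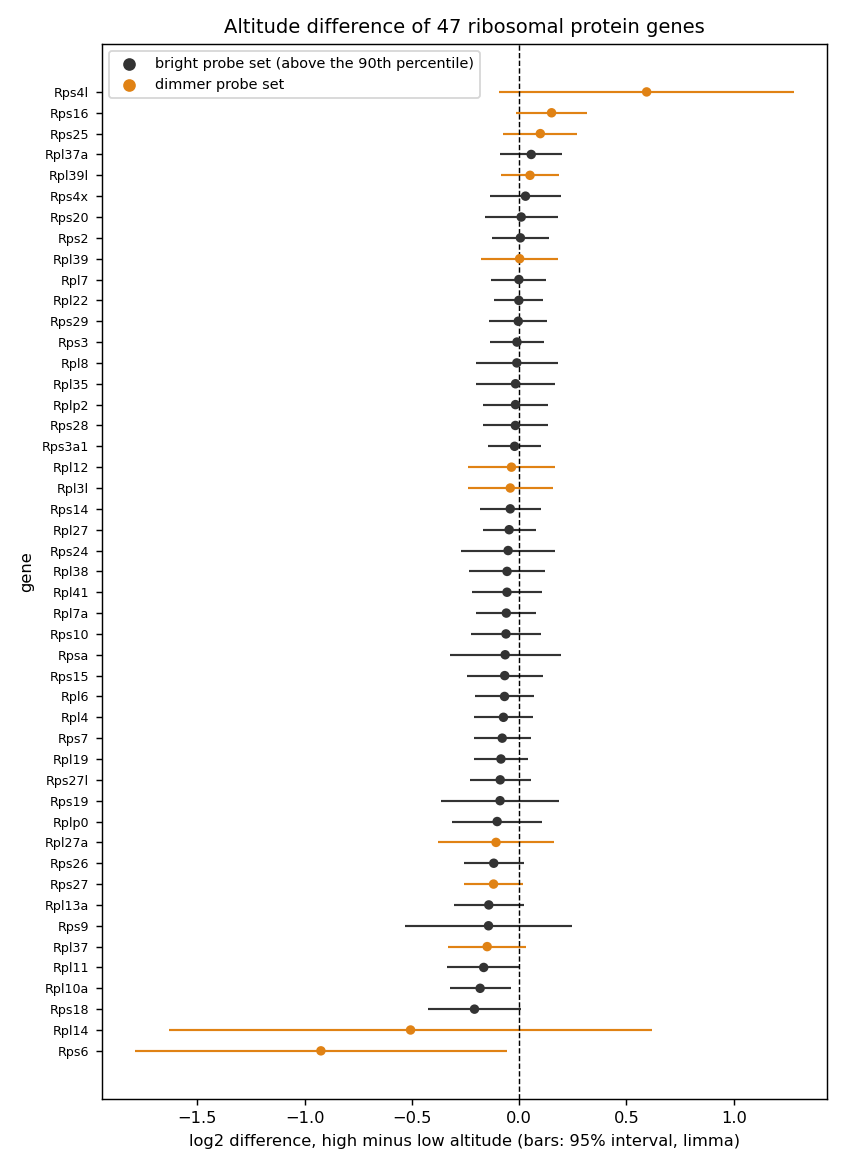
Log2 difference between altitudes (high minus low) for each of the 47 genes, with the 95% interval of limma's fit as a bar; dark points have bright probe sets and orange points dimmer ones. Most points lie just left of 0 with intervals that reach across it, Rps6 at -0.92 and Rps4l at 0.59 lie farthest out, and the intervals of Rps6, Rpl14 and Rps4l are the widest.

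Within the small subunit, 17 of 23 genes had negative differences (median -0.052). The 40S head, the lobe that holds the decoding centre's upper part and the transfer RNAs, was represented by 10 genes with a median of -0.014. Its most distant member was Rps18, whose protein contacts the large subunit across the intersubunit bridges. Rps18 ran from 12.18 in high A2 through a median of 12.66 to 12.89 in high B1, and from 12.50 in low C3 through 12.82 to 13.15 in low A1. The groups overlapped, with 8 of the 9 mice from La Paz under the Lima mean, and the difference was -0.21 ± 0.10 (SE, adjusted p = 0.463). It was -0.11 without high A2 and high C3. Its other bright probe sets gave -0.19 and -0.15. Rps3, at the mRNA entry site, differed by -0.01 and Rps29, a zinc-binding protein of the head, by -0.0043. Rps19, the gene most often mutated in Diamond-Blackfan anaemia, and Rps9 were singled out for their spread after their values were seen. Rps19 lay between 10.36 and 11.14 at high and between 10.46 and 11.37 at low altitude and differed by -0.09. Rps15, Rps10, Rps28 and Rps20, also of the head, differed by -0.07, -0.06, -0.02 and 0.0094. Rps16 and Rps25, the rest of the head genes, were measured by probe sets with low mean levels of 3.44 and 5.12, at percentiles 4.4 and 29.7. They had the largest positive differences of the head, 0.15 ± 0.08 and 0.10 ± 0.08 (SE, adjusted p = 0.497 and 0.729). On their brightest probe sets shared with other genes, at 13.61 and 12.25, the differences were -0.02 and -0.21.

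The 40S body and platform were represented by 11 genes, 9 of them with negative differences, and a median of -0.065. Rps26, which sits at the mRNA exit, had all 3 high location means below the 3 low ones. It ran from 12.24 in high C3 through 12.50 to 12.66 in high C1, against 12.47 in low A2 through 12.56 to 12.79 in low A1. Single mice overlapped, and the difference was -0.12 ± 0.07 (SE, adjusted p = 0.533). Rps9, needed for accurate decoding, was the bright gene with the widest spread between mice of a location, an SD of 0.46. It lay between 10.96 in high C3 and 12.09 in high A1, and between 11.17 in low C3 and 12.29 in low A1. Its difference of -0.14 ± 0.19 (SE) was within that spread. Rps14, which lines the platform, differed by -0.04, and Rps4x by 0.03. Rps7, Rpsa, Rps24, Rps3a1 and Rps2 differed by -0.08, -0.07, -0.05, -0.02 and 0.0057.

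Within the large subunit, 21 of 24 differences were negative (median -0.057). Rpl10a, a protein of the flexible L1 stalk that guides the leaving transfer RNA, had the smallest p of the family. Rpl10a ran from 12.35 in high C3 through a median of 12.48 to 12.80 in high C1, and from 12.56 in low A3 through 12.67 to 12.90 in low B2. All mice but high C1 and high A1 lay at or below 12.53 at high altitude, and all low altitude mice above 12.55. The difference was -0.18 ± 0.07 (SE, 95% interval -0.32 to -0.04), a 1.13-fold lower level, with an unadjusted p of 0.0145 and an adjusted p of 0.268 by limma. Its location means were 12.51, 12.49 and 12.54 at high and 12.62, 12.77 and 12.69 at low altitude. Without high A2 and high C3 the difference was -0.14 (adjusted p = 0.512).

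Rpl11, which with Rpl5 and 5S RNA forms the particle that can bind and inhibit Mdm2, came next. It ran from 12.05 in high A2 through 12.38 to 12.52 in high A1, against 12.29 in low C3 through 12.47 to 12.79 in low B2, a difference of -0.17 ± 0.08 (SE, adjusted p = 0.45). In low C the mean was 12.33, below high A and high B at 12.36, so the location means of the altitudes overlapped. Rpl13a, which also takes part in silencing inflammatory mRNAs, was singled out after its values were seen, because its 3 further probe sets had unadjusted p under 0.05. Its 4 single-gene probe sets differed by -0.14, -0.20, -0.18 and -0.32 between altitudes, with unadjusted p of 0.0845, 0.0457, 0.0244 and 0.0183 by limma and adjusted p of at least 0.332 over all single-gene probe sets. Of genes with more probe sets, the 6 of Rps10 differed by -0.10 to 0.0029, the 6 of Rps24 by -0.09 to 0.03 and the 6 of Rpl35 by -0.19 to -0.02. None of these had an unadjusted p under 0.05. The 6 of Rps18 differed by -0.21 to 0.04. Of those, 1 with a low mean level of 4.04 differed by -0.14, with an unadjusted p of 0.0259 by limma. Of the stalk that recruits elongation factors, Rplp0 differed by -0.10 and Rplp2 by -0.02. Rpl12 at its base, on a probe set with a low mean level of 4.62, differed by -0.04. The bright probe sets that Rpl12 shares with other genes, at 11.52 and 11.38, differed by -0.20 ± 0.14 and -0.22 ± 0.13 (SE). Rplp0 was lowest in high C3, at 11.90, and in low A2, at 12.23. Of 6 genes of the peptide exit tunnel 5 had negative differences (median -0.037). The other was Rpl39, at 0.0021 on a probe set with a mean level of 7.28. On a brighter probe set that Rpl39 shares with another gene, at 13.55, the difference was -0.09. Rpl19, also of the tunnel, ran from 12.26 to 12.60 at high and from 12.42 to 12.71 at low altitude. Rpl37a was the large subunit gene with the highest difference, 0.06 ± 0.07 (SE). Rpl27a differed by -0.11, Rpl4 by -0.07, Rpl7a, Rpl41 and Rpl38 by -0.06 each, Rpl27 by -0.05, Rpl35 by -0.02 and Rpl8 by -0.01.

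For 6 genes, Rps6, Rpl10a, Rpl37, Rps26, Rps27l and Rpl19, the 3 high location means lay entirely below the 3 low ones, and for 0 entirely above. Among them Rpl37, a zinc-binding protein, differed by -0.15 ± 0.09 (SE). The 6 are 12.8% of the members in either direction, where 14.6% of all genes had it. For lower means alone 7.05% of all genes had it. For 0 of the 47 genes did all 9 mice of one altitude lie apart from all 9 of the other.

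The differences farthest from 0 on either side belonged to 3 genes with a wide spread between mice, Rps6, Rpl14 and Rps4l, and each was measured by a probe set below the 90th percentile of level, called dim here; the 35 members above it are called bright. Rps6, whose protein is the classic substrate of the S6 kinases, stood at 9.87 in low A1 and 9.52 in low A2. In the third mouse of that location, low A3, it stood at 6.83, and in the other 15 mice between 6.05 and 6.74. The difference between altitudes of -0.92 ± 0.42 (SE, adjusted p = 0.394 by limma) came with an SD of 1.37 at low and 0.19 at high altitude. Without the 3 mice of low A it was -0.20. A second Rps6 probe set lay near the floor of the array, at 3.47. The brightest of the probe sets that Rps6 shares with its pseudogene Rps6-ps4 averaged 13.33 and differed by 0.13 ± 0.08 (SE) the other way. In low A, the location of both high values, it was 13.18, beside 13.24 and 13.37 in low B and C.

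Rpl14, of the large subunit's solvent side, took values over a range of more than 3 log2 units. The 3 mice of high B stood at 4.80, 4.61 and 4.96. High A1 and A4 stood at 8.05 and 8.13 and high C1 at 8.13, with high A2, C2 and C3 at 6.46, 6.92 and 6.55. At low altitude, low B1 and B3 stood at 5.32 and 5.50 and the other 7 mice between 6.66 and 8.17. The altitude difference was -0.51 ± 0.54 (SE, adjusted p = 0.807) and turned to 0.36 without high B. On the brightest probe set shared by Rpl14 and Rpl14-ps1 the location means lay within 12.22 and 12.36, and high B at 12.29 was the highest of the high locations. On another of them, averaging 11.07, high B at 10.94 was the lowest, beside 11.13 and 11.12 in high A and C. On the rest high C was the highest.

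Rps4l, an autosomal copy of the X-linked gene Rps4x, was the member with the largest positive difference. It ran from 6.32 in high A2 through 8.37 to 9.25 in high C2, and from 6.41 in low B2 through 7.69 to 8.44 in low B3. All 6 mice of high B and C lay at or above 8.32, where 1 mouse of low altitude did. The location means were 7.31, 8.48 and 8.71 at high and 7.84, 7.51 and 7.36 at low altitude, so that high A lay below every low location. The difference was 0.59 ± 0.33 (SE, adjusted p = 0.525). It was 1.02 without high A and 0.32 without high C. Rps4x itself had means of 12.47 ± 0.16 and 12.44 ± 0.15 (SD) in the 9 high and 9 low mice.

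**Figure D4:**
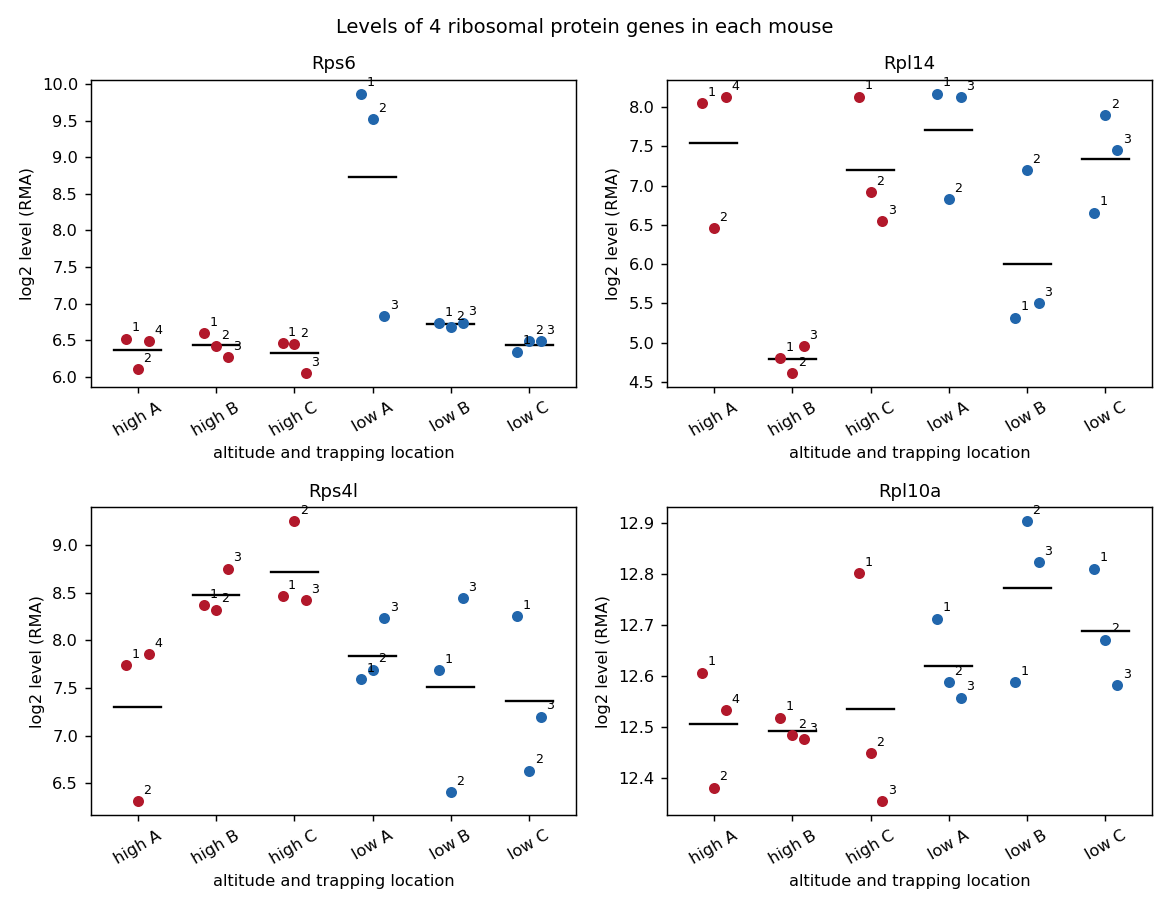
Log2 level in each mouse (points, labelled with the mouse number) by altitude and trapping location for Rps6, Rpl14, Rps4l and Rpl10a, with location means as bars. Rps6 is near 6.5 except at 9.87 and 9.52 in low A1 and A2, Rpl14 is lowest in the 3 mice of high B, Rps4l runs from 6.32 to 9.25 at high and from 6.41 to 8.44 at low altitude, and Rpl10a has lower location means at high altitude with overlapping mice.

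Paralogues replace a standard ribosomal protein in some tissues. Rps27l, a p53 target and near copy of Rps27, ran from 11.86 to 12.12 at high and from 11.78 to 12.23 at low altitude (difference -0.09 ± 0.07, SE). Rpl3l, the heart and muscle copy of Rpl3, and Rpl39l, the testis copy of Rpl39, lay at or below 4.78 in every mouse and differed by -0.04 and 0.05. Rps27 on its own dim probe set differed by -0.12, Rpl39 by 0.0021, Rpl6 by -0.07, Rpl7 by -0.0013 and Rpl22 by -0.0017. The copies Rpl22l1 and Rpl7l1, whose symbols end in a number and which are not members, differed more. Rpl22l1 ran from 10.37 in high A2 through 11.11 to 11.31 in high C1, and from 10.96 in low C3 through 11.55 to 12.09 in low B3. Its location means were 10.91, 11.12 and 10.98 at high and 11.73, 11.66 and 11.41 at low altitude, and the difference was -0.60 ± 0.16 (SE, 1.52-fold lower, unadjusted p = 0.00115, adjusted p = 0.107 by limma). Rpl7l1 ran from 8.73 through 8.93 to 9.35 at high and from 8.84 through 9.40 to 9.60 at low altitude, a difference of -0.35 ± 0.11 (SE, adjusted p = 0.169). Both missed the threshold over all genes.

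Further probe sets gave a second reading of the same genes. Of the 47 genes 23 had more than 1 single-gene probe set. Of 41 further ones above the median probe set level, from 20 genes, 33 differed in the same direction as the gene's main probe set. Since 31 of the 35 bright members were negative, most signs would match even between unrelated members, so this count is no separate evidence. By limma 0 of the 41 passed, and 3, all of Rpl13a, had an unadjusted p under 0.05, where 0.363% and 11.5% of all genes did. The other 8, from Rpl22, Rps29, Rps4x, Rps24, Rps3 and Rps20, differed in the opposite direction; the farthest from 0 were -0.06 for Rps4x and 0.06 for Rpl22 and Rps29. Of 110 probe sets shared between a ribosomal protein gene and other genes, 80 were bright, above the 90th percentile of genes; 70 of the 80 had negative differences, with a median of -0.052. By limma 0 of the 110 passed and 3 had an unadjusted p under 0.05, all lower at high altitude; this is a smaller share than the 5.1% of all genes. The lowest p belonged to a probe set of Rps27 and its retrotransposed copy Rps27rt. It ran from 11.62 through 12.12 to 12.22 at high and from 12.19 through 12.36 to 12.67 at low altitude, so that the ranges met only at their ends. The difference was -0.38 ± 0.09 (SE, unadjusted p = 0.000339, adjusted p = 0.071), with all 9 mice from La Paz under the Lima mean. This probe set was singled out after its value was seen.

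**Figure D5:**
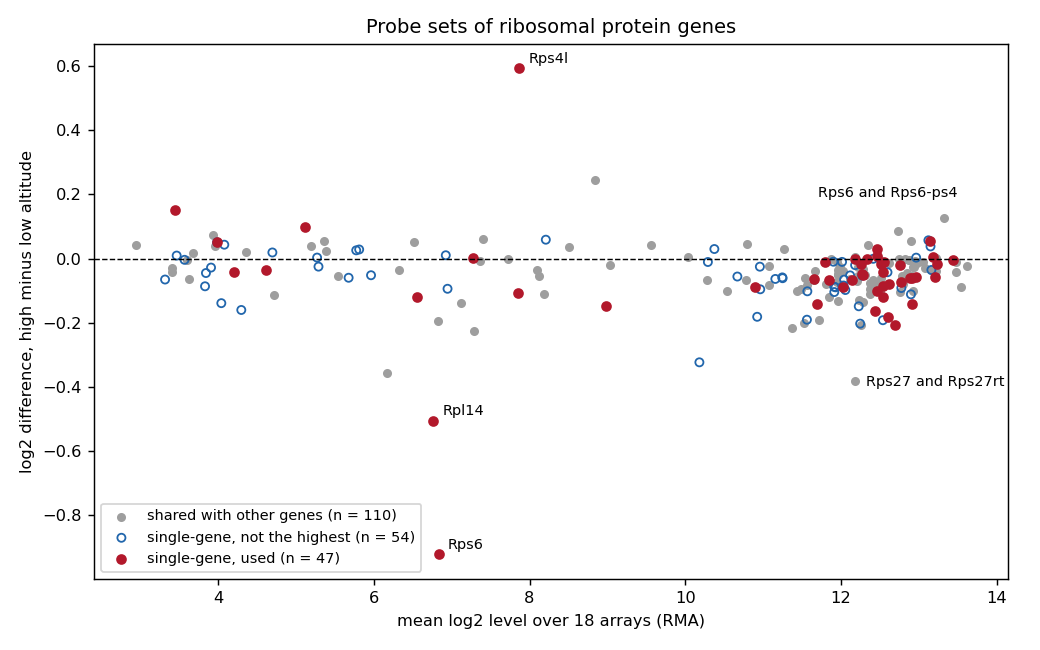
Mean log2 level of each probe set over the 18 arrays against its log2 difference between altitudes (high minus low), for the 47 probe sets used (red), 54 further single-gene probe sets (blue rings) and 110 shared ones (grey). Bright probe sets of all 3 kinds gather just below 0, and Rps6, Rpl14 and Rps4l stand out among the dimmer ones.

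The second comparison asked whether the genes differed between trapping locations of one altitude. By limma's moderated F test 0 of 47 members passed at high altitude, where 0.302% of all genes did, and 5 had an unadjusted p under 0.05, against 8.91% of all genes. The 5 were Rpl14, Rps25, Rpl3l, Rps4l and Rpl12, all with dim probe sets. Rpl14 was nearest to the threshold (unadjusted p = 0.00023, adjusted p = 0.0634), with means of 7.55, 4.79 and 7.20 in high A, B and C. The 3 mice of high B had Actb 3 prime minus 5 prime signals of 2.02, 1.46 and 1.63, ranks 18, 16 and 17 from the lowest of 18. Low B1 and low B3, next lowest for Rpl14 at 5.32 and 5.50, had Actb signals of 1.40 and 1.06, ranks 14 and 3. With that signal as a covariate the high altitude test called 18 of all genes, against 55 without it, and Rpl14 did not pass. The cause of the low Rpl14 level in high B was not tested. Of 32 alternatives, Rpl14 passed an adjusted p of 0.05 in 4. These were without high A2 (adjusted p = 0.0252), without high A2 and high C3 (0.031), without low B2 (0.0279) and with arrays weighted by quality (0.0224). With these weights Rpl3l passed too (0.0367). High A2 and high C3, at 6.46 and 6.55, were the mice of high A and C nearest to high B. Leaving them out could only widen the gap. Rps25 stood at 5.36, 4.95 and 5.19 and Rpl3l at 4.10, 4.44 and 4.02 in these locations (adjusted p = 0.384 and 0.405). At low altitude 0 of 47 passed, where 0.0715% of all genes did, and 2 had an unadjusted p under 0.05, against 6.68% of all genes. Rps6 had means of 8.74, 6.72 and 6.44 in low A, B and C (adjusted p = 0.224), and Rpl14 of 7.71, 6.01 and 7.34 (adjusted p = 0.59). Without low A3, the low value of its location, Rps6 passed with an adjusted p of 1.39e-07. Low A then held only low A1 and low A2, at 9.87 and 9.52, so the choice of the mouse left out fixes the direction of this change. Rps14 at 12.64, 12.65 and 12.40 and Rpl27a at 7.68, 7.81 and 8.21 did not pass (adjusted p = 0.741 and 0.751). Of the 35 members with bright probe sets, 0 had an unadjusted p under 0.05 in either location test.

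The bright members moved together from mouse to mouse. Over the 18 arrays the mean Pearson correlation between 2 of the 35 bright members was 0.60 (Spearman 0.59), and 98.8% of the 595 pairs were positive. Without high A2 and high C3 it was 0.48. Among the 12 dimmer members the mean was -0.02, with 48.5% of 66 pairs positive, and between any 2 of all genes it was 0.0044. That last mean covers genes of every level, and no other set of bright genes was compared. The bright members share high signal, and some share probes that can match related sequences, per the probe set suffixes: of the 47 probe sets used, 13 carried the suffix x and 2 the suffix s. Rps26 followed the mean of the other members most closely (r = 0.94), then Rpl4 (0.92) and Rpl38 (0.91). Rps27l, with r = 0.20, and Rps14, with 0.33, were bright genes that followed it least. Of all genes outside the family, Itga1 (0.83), Apcs (0.80) and Rara (0.77) followed the members' mean most closely, above many members. These correlations describe 18 arrays that were normalized together. The median bright member had 3.08% of its sum of squares between altitudes, 18.2% between locations and 74.7% between mice of a location. The medians over all genes were 4.17%, 22.6% and 68.7%.

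Other genes of translation were counted from lists, beside all genes, of which 48.4% had negative differences, 0.363% passed and 11.5% had an unadjusted p under 0.05 (5.1% lower, 6.38% higher). Of 17 further TOP mRNAs, among them the elongation factor genes, 12 had negative differences (median -0.031), 0 passed and 1, Eif3l, had an unadjusted p under 0.05 (-0.37 ± 0.10, SE, adjusted p = 0.107 by limma). Of 23 initiation factor genes 16 were negative (median -0.074), 0 passed and 6 (26.1%) had an unadjusted p under 0.05, all lower, with Eif2b1 at -0.22 and Eif3m at -0.22 first. Of 34 ribosome assembly factor genes 26 were negative (median -0.033), 0 passed and 3 (8.82%) had an unadjusted p under 0.05, with Riok2, a kinase of late 40S maturation, at -0.43. Among 14 genes of RNA polymerase I and its regulators 0 passed (median -0.019) and 1 had an unadjusted p under 0.05: Myc, which drives ribosome production, differed by 0.30 ± 0.12 (SE, adjusted p = 0.286). Among 19 mTOR and S6 genes 0 passed (median -0.10) and 3 had an unadjusted p under 0.05, with Rheb, the activator of mTOR, at -0.24 ± 0.07 (SE, adjusted p = 0.167). Of 8 genes of the p53 pathway, which free ribosomal proteins can activate through Mdm2, 7 were positive (median 0.22), 0 passed, and Sesn1 at 0.30 had the 1 unadjusted p under 0.05. The 11 measured Diamond-Blackfan anaemia genes are themselves members and share the mice and the signs of the family, in which 38 of 47 and 31 of 35 bright genes were negative. All 11 differences were negative (median -0.062), and 0 passed or had an unadjusted p under 0.05. In high C3 the other TOP mRNAs and the initiation factors were at their lowest of the 18 mice too. So were the RNA polymerase I genes and, outside translation, the erythroid markers. In high A2 the other TOP mRNAs and the initiation factors ranked 7 and 11 from the lowest, and those 2 lists 12 and 4.

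In whole liver, fewer cells of a type and less RNA per cell cannot be told apart. Of 12 B and plasma cell markers 8 had positive differences (51.6% of all genes did) and 4 (33.3%) an unadjusted p under 0.05. Jchain and Ighm were higher at high altitude by 2.34 and 2.05, with adjusted p of 0.00291 and 0.00762 by limma, and were the only ones of the list to pass. The mean level of the B and plasma cell list was between 5.80 and 6.45 at high and between 5.63 and 5.88 at low altitude. For 16 T and NK cell markers, 13 of them positive, the ranges were 5.76 to 6.55 and 5.56 to 6.23. For 14 Kupffer cell markers, 13 positive, they were 8.83 to 10.22 and 8.60 to 9.76. In these 2 lists 0 passed between altitudes, and 7 (43.8%) and 6 (42.9%) had an unadjusted p under 0.05, all higher, against 6.38% of all genes. Both lists also varied by location. T and NK means were 6.46, 5.93 and 5.86 in high A, B and C, against 5.67 to 5.85 in low locations. Kupffer means were 9.89, 9.11 and 9.41 at high and 9.10, 9.59 and 8.74 at low altitude. By limma's F test between high locations 2 T and NK markers passed, where 0.302% of all genes did. An unadjusted p under 0.05 fell to 8 of 16 there, against 8.91% of all genes. Of 14 Kupffer markers 9 had it there, and 10 between low locations, where 6.68% of all genes did. Hepatocyte markers had a median difference of -8.78e-05, erythroid markers were negative in 5 of 6 and proliferation markers in 6 of 9. In these 3 lists 0 passed, and 1, 0 and 0 had an unadjusted p under 0.05, against 11.5% of all genes. The Actb 3 prime minus 5 prime signal had means of 1.40 ± 0.32 and 1.21 ± 0.17 (SD) in the 9 high and 9 low mice. With that signal as a covariate the family's median difference was -0.038. The part of these other cells in the family's levels was not tested.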

How the data were processed

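Liver RNA of 18 mice was hybridised to Affymetrix mouse arrays, 1 per mouse. The deposited table held log2 values for 45101 probe sets, made by the authors with RMA in the R package affy, per the submitters' processing notes; neither version is stated there. RMA normalizes arrays to a common distribution, which can hide a shift shared by very bright probe sets. Apart from that step, differences can be compressed near either end of the signal range, in dim or very bright probe sets. GEO's platform annotation gave 34958 probe sets 1 gene and 932 several; the rest were unnamed or controls. The family rule, the gene lists and the tests were chosen with earlier results of these data known.

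Altitude was fitted over all 18194 genes with limma 3.58.1 in R 4.3.3: trapping location as a random block (consensus correlation 0.00583, so mice of a location counted almost as independent), a mean-variance trend, two-sided tests, Benjamini-Hochberg adjustment at 0.05. Locations were compared by a moderated F test in a fit of 6 location means. No dim gene was left out. The procedure was tested on simulated data. Nothing says that mice of a location were unrelated. Genes were named by rank of difference and of p, by separated location means, as paralogues, or by disagreeing probe sets; lists by the lowest p. Further members were named for their role. Alternatives covered normalization, centring, a filter on level, probe set rules, moderation, array weights, blocks, thresholds, members and left-out mice or locations; admitting shared probe sets, leaving out high A2 and high C3, and bright members alone were added after seeing the data. Figures used matplotlib 3.10.9 and pandas 2.3.3 in Python 3.11.15. Detection calls, scan dates and sequences of these genes were not used here.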

Additional observations from a re-analysis of the deposited data

Results flagged for a closer look

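In 54 groups of 9 mice, 1 per altitude for each named gene and for the mean level of the family, 3 held a mouse farther from its nearest neighbour than Dixon's 95% limit allows, and chance alone marks about 1 group in 20. Rpl3l stood at 4.78 in high B3, the next mouse at 4.38. Rps16 stood at 3.94 in the same mouse, the next at 3.61; both probe sets are dim. Rps3 stood at 12.21 in high C3, below the next mouse at 12.47.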

How the results depend on the processing

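The count of members past the altitude test was 0 under all 40 alternatives, with adjusted p of at least 0.0693. The family's median difference stayed between -0.083 and 0.011 and was positive only without high A2 and high C3, the lowest mice; with 1 mouse left out it ran from -0.083 to -0.03, and the difference of the mean level from -0.083 to -0.039. The count for high altitude locations was 2 with array weights, 1 at an adjusted p under 0.1, 1 without high A2 and high C3, and 0 to 1 with 1 mouse left out, as was the count for low altitude locations. Over all genes the altitude test called 66, from 19 to 84 with 1 mouse left out, 135 with array weights, 180 at an adjusted p under 0.1, 0 with 1 mean per location (1617 at an unadjusted p under 0.05), 34 without high A, 100 without high B, 30 without low B and 34 without low C. The F test over all genes called 55 at high and 13 at low altitude, and 28 to 70 and 4 to 17 with 1 mouse left out. With array weights it called 281 and 50, and with the Actb signal as a covariate 18 and 6. Mouse numbers do not pair mice across locations: deviations of same-numbered mice correlated at a mean of -0.014, and 5 of 18 mice matched best with their own number. With mouse number as a replicate block the altitude test called 28 genes and 0 members, the family's median difference was -0.069, and Rps4x turned to -0.0031.

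Altitude differences of uncalled genes changed sign as follows, and the causes were not tested. Normalizing again gave Rpl22 0.0072, Rpl39 -0.0057, Rpl7 0.013 and Rps3 0.0091; centring on array medians gave Rpl39 -0.022. Averaging single-gene probe sets gave Rpl22 0.029, Rps29 0.030 and Rps4x -0.015; leaving out x and s probe sets gave Rpl22 0.030 and Rps24 0.026, the second read from a dimmer probe set. Array weights gave Rpl22 0.0016, and the Actb covariate Rpl14 0.067 and Rps29 0.011. Admitting shared probe sets, which gave 76 genes, turned Rpl39 to -0.087, Rps16 to -0.024, Rps25 to -0.21 and Rps6 to 0.13. Without high A2 and high C3, Rpl22 was 0.039, Rpl7 0.039, Rps24 0.031, Rps29 0.040 and Rps3 0.049. Without high A, Rpl22 was 0.011, Rpl39 -0.0069 and Rpl3l 0.0019; without high B, Rpl14 0.36; without high C, Rpl22 0.0042, Rpl3l 0.042, Rpl7 0.022, Rps29 0.014 and Rps3 0.031. Without low A, Rpl39 was -0.036 and Rps4x -0.0058; without low B, Rpl22 0.040, Rpl3l 0.0095, Rpl7 0.038, Rps14 0.00034, Rps24 0.023, Rps29 0.038 and Rps3 0.00021; without low C, Rpl27a 0.044 and Rpl39 -0.045. With 1 mouse left out, Rpl22 ran from -0.021 to 0.018, Rpl39 from -0.049 to 0.029, Rpl7 from -0.018 to 0.024, Rps29 from -0.038 to 0.022, Rps3 from -0.027 to 0.032 and Rps4x from -0.0079 to 0.055.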
